A study of Mus musculus with 6 samples.

Results

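Genes of 4 chromatin families were examined in the E10.5 mouse heart with and without Rnd3: the Smarc and Chd chromatin remodellers, the histone deacetylases (Hdac) and the histone lysine demethylases (Kdm). Members were taken by gene symbol in the array's annotation, and 49 genes of the 18193 with a probe set of their own belonged to the set: 13 Smarc, 10 Chd, 11 Hdac and 15 Kdm genes. The sex-linked demethylase genes Kdm5c, Kdm5d and Kdm6a were left out, and Chdh, a choline dehydrogenase that only shares the first letters, is no member. For a gene with several probe sets, the one with the highest mean log2 signal over the 6 arrays was used. The study measured RNA from embryo hearts of the C57BL/6N background on Affymetrix whole-genome expression arrays, 1 array per sample. The wild-type (WT) group and the RhoE knockout (KO) group held 3 samples each, all at E10.5. RhoE is the other name of Rnd3. The knockout is a gene trap present in the whole embryo, so changes in the heart need not start in heart cells, and the submitters state that these mice died from E10.5 on. The submitters describe 3 pairs of littermates, but no label says which samples are littermates, or whether a sample holds 1 heart or a pool. The p-values therefore measure only the spread between these arrays. Sex-linked signals, given below, differ among the KO arrays, so these are not repeats of the same RNA. No label settles this for the WT arrays, or says how many embryos the spread covers.

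Chromatin remodellers use ATP to slide, eject or exchange nucleosomes. SWI/SNF (BAF) complexes are built around the ATPase Smarca4 or Smarca2, ISWI complexes around Smarca5 or Smarca1, and the NuRD complex joins the remodeller Chd4 to the deacetylases Hdac1 and Hdac2. Deacetylases remove acetyl groups from histone tails, which mostly goes with lower transcription, and Kdm enzymes remove methyl groups from histone lysines, some of them activating marks and some repressive. In the developing heart Smarca4, its partner Smarcd3, Chd7 and several deacetylases are known to be needed for chamber growth, cardiac gene programmes and septation.

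Rnd3 itself followed the labels. Its brightest probe set gave 909, 954 and 862 on the WT arrays and 5.89, 12.3 and 121 on the KO arrays, with no overlap. Signals are MAS5 values, a linear brightness per probe set. The level that 40% of an array's probe sets stay under, 44.5 to 52.8, served as a low-signal limit, and a gene was tested when 3 or more of the 6 arrays exceeded the limit. Heart muscle markers were abundant on every array, none of the 10 being below the limit on all arrays, with a summed signal of 257336 to 276190 in WT and 236236 to 267326 in KO. Sex-linked genes differed between arrays. Xist, made by the inactive X chromosome of female cells, gave 10251, 12474 and 11878 on the WT arrays and 539, 8884 and 28.4 on the KO arrays. The Y-linked gene Eif2s3y gave 551, 312 and 385 on the WT arrays and 2214, 793 and 2339 on the KO arrays. Eif2s3y and the Y-linked genes Uty and Kdm5d passed as higher in KO (adjusted p = 0.0360, 0.0344 and 0.0344 by limma). KO array 2 differed less than the other KO arrays. Its Xist was still below every WT array, and its Y-linked signals were above every WT array. Genotype and sex of the tissue therefore cannot be told apart in this contrast, least of all on KO arrays 1 and 3.

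No member of the 4 families passed the test between KO and WT. Of the 49 members 47 were tested, and 0 rose and 0 fell at an adjusted p of 0.05 (limma with Benjamini-Hochberg adjustment over 12712 genes). Over all tested genes 1.27% were called in either direction, 0.787% higher and 0.488% lower in KO, so a set of this size would hold few calls at that rate. At an unadjusted p of 0.05, 12 members passed (25.5%) against 20.3% of all tested genes. All 12 had a negative log2 fold change. Over all tested genes, whether they passed or not, 56.2% were negative. The negative share among those that passed was not counted, so the one direction of the 12 has no matching background. Among the brightest probe sets, the smallest adjusted p was 0.0701, for Chd8. Members' standard errors ran from 0.076 to 0.22 on the log2 scale. The 95% interval of the difference lay within 2-fold either way for all 47 tested members and within 1.5-fold for 42 of them. Larger changes lie outside these intervals, which cover only each gene's brightest probe set. Dim further probe sets of Hdac2 and Chd9 had log2 fold changes of -1.04 and -0.91.

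The members lay slightly lower in KO than genes in general. Their median log2 fold change was -0.13, with 35 of 47 negative (74.5%). Over all tested genes the median was -0.04 and 56.2% were negative. For 16 members (34.0%) every KO array was below every WT array, a pattern found in 15.5% of all tested genes, and for 1 member (2.13%) every KO array was above, against 10.8%. These shares describe the set and were not tested. Against the WT mean, the members' median was -0.11, -0.18 and -0.11 on KO arrays 1, 2 and 3, where that of all tested genes was -0.01, -0.03 and -0.04. KO array 2 was the lowest of the 3 KO arrays for 27 members (57.4%), against 37.1% of all tested genes. Fewer cells of a type that expresses these genes and less RNA per cell cannot be told apart in such bulk samples. With tested genes split into quartiles by mean signal, the 17 members of the brightest quartile had a median of -0.13 (all genes there, -0.0087) and the 14 of the next one -0.21 (all genes, -0.05). The 14 members of the quartile below had a median of -0.0033 (all genes, -0.05), and the 2 in the dimmest one had -0.33 (all genes, -0.06).

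**Figure D1:**
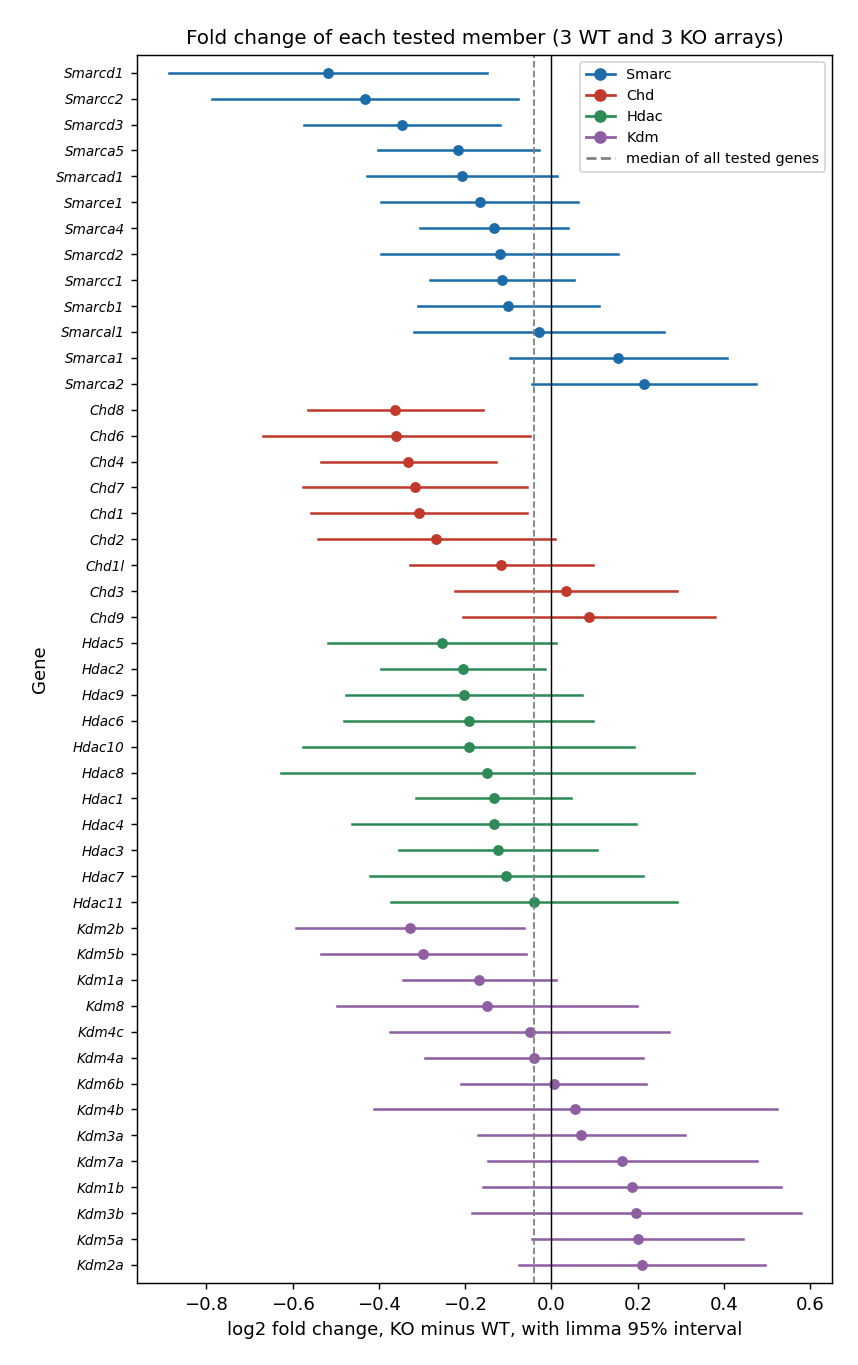
Log2 fold change (x axis, KO minus WT) of each tested member with its limma 95% interval, grouped and coloured by family, from 3 WT and 3 KO arrays. The dashed line is the median of all tested genes, -0.04; intervals of 12 members do not reach 0, and the fitted values run from -0.52 (Smarcd1) to 0.21 (Smarca2).

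**Figure D2:**
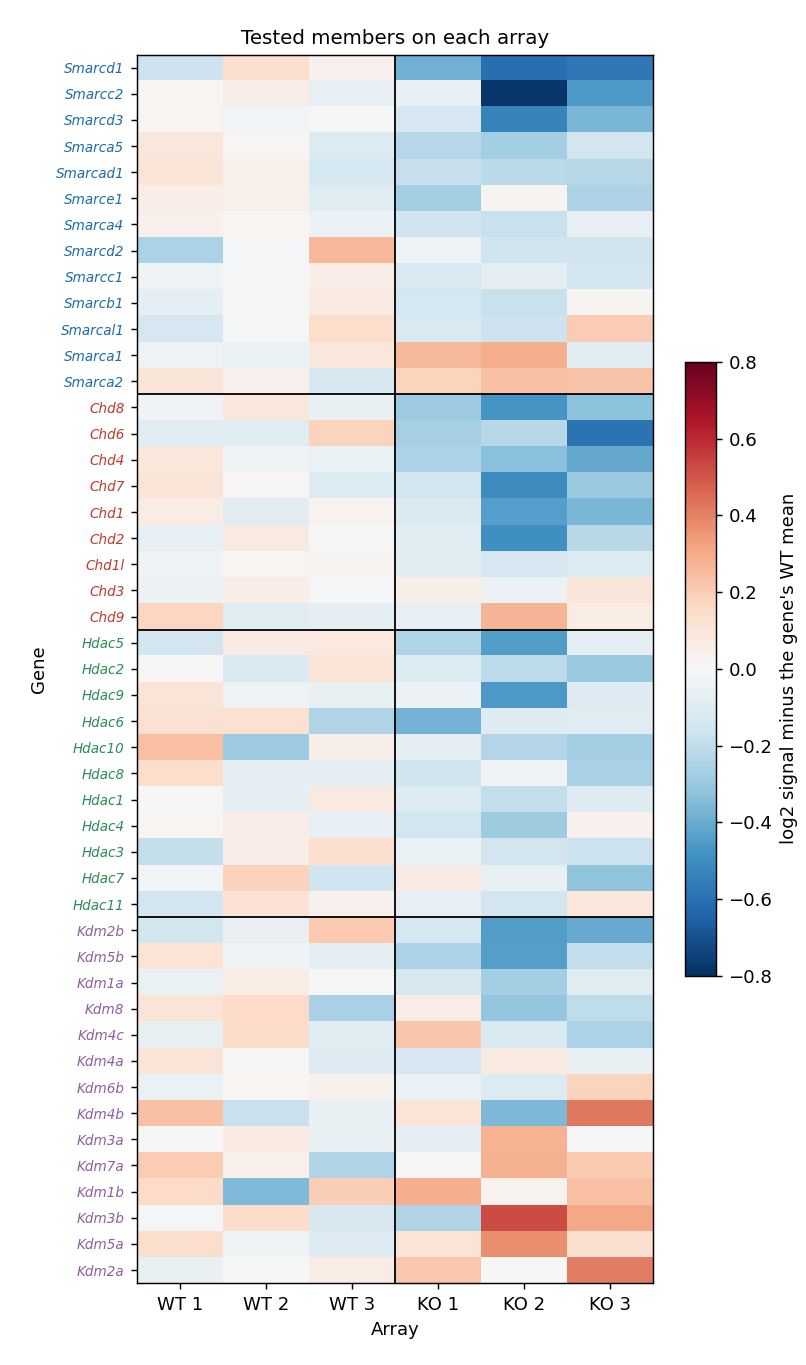
Log2 signal of each tested member on each array minus the gene's WT mean, blue for lower and red for higher; rows are genes by family and columns are arrays. KO arrays are mostly blue for the Smarc, Chd and Hdac genes and mixed for the Kdm genes, with the deepest blue for Smarcc2 on KO array 2.

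Among the ATPases of the Smarc family, Smarca4 (Brg1), the main SWI/SNF motor of the embryonic heart, gave 4637, 4570 and 4385 on the WT arrays and 4060, 4007 and 4331 on the KO arrays. All KO values were lower, the highest of them only just below the lowest WT value, for a log2 fold change of -0.13 (SE 0.08, adjusted p = 0.369 by limma). Smarca2 (Brm), the alternative motor of the same complexes, gave 425, 406 and 363 on the WT arrays and 450, 468 and 464 on the KO arrays. It was the member with every KO array above every WT array and had the highest value of the set, 0.21 (SE 0.12, adjusted p = 0.337). Smarca5 (Snf2h), an ISWI motor that spaces nucleosomes, gave 4517, 4286 and 3939 on the WT arrays and 3614, 3519 and 3825 on the KO arrays, a log2 fold change of -0.22 (SE 0.08, adjusted p = 0.185) without overlap. Its paralog Smarca1 (Snf2l) had 0.15 with overlapping groups. Smarcad1, a remodeller that helps restore silent chromatin after replication, had -0.21 without overlap, and Smarcal1, a helicase that rewinds DNA at stalled replication forks, had -0.03.

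The largest differences of the Smarc family were in accessory SWI/SNF subunits. Smarcd3 (Baf60c), the heart-enriched subunit that links the complex to cardiac transcription factors, gave 3730, 3644 and 3703 on the WT arrays and 3361, 2549 and 2862 on the KO arrays. The WT values lay close together, the KO values were all lower, and the log2 fold change was -0.35 (SE 0.10, adjusted p = 0.101 by limma). Smarcd1 (Baf60a), a subunit of the same kind, gave 197, 243 and 227 on the WT arrays and 170, 146 and 149 on the KO arrays, again without overlap. Its log2 fold change of -0.52 (SE 0.17, adjusted p = 0.122 by limma) was the lowest among tested members. Smarcc2 (Baf170), a scaffold subunit, gave 764, 784 and 722 on the WT arrays and 726, 441 and 550 on the KO arrays. KO array 1 was within the WT range and the others were far below it, for -0.43 (SE 0.16, adjusted p = 0.170 by limma). The other scaffold, Smarcc1 (Baf155), had -0.12 without overlap, and -0.41 in a second bright probe set. The remaining core subunits Smarcb1 (-0.10), Smarcd2 (-0.12) and Smarce1 (-0.17) had overlapping groups. In all, 11 of 13 Smarc genes had a negative value, with a family median of -0.13. For 6 of them all KO arrays were below all WT arrays, against 15.5% of all tested genes.

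Without KO array 1, 916 of all tested genes passed, against 162 in the main fit. In that fit without KO array 1, 3 of 47 tested members passed as lower in KO by limma: Smarcd3 (-0.45, adjusted p = 0.0246), Smarcc2 (-0.62, adjusted p = 0.0269) and Chd8 (-0.40, adjusted p = 0.0432). Without KO array 2 or 3, or without any of the WT arrays, 0 members passed, and without KO array 2 Smarcc2 had -0.26 (adjusted p = 0.342). With the Xist signal of each array as a covariate for sex, where 819 genes passed, Smarcc2 (-0.89, adjusted p = 0.0367) and Smarcd3 (-0.60, adjusted p = 0.0371) passed. The fits without KO array 1 and with the covariate called many more genes in general than the main fit, so these calls do not set the members apart. Chd7 (-0.60), Kdm5b (-0.53) and Chd1 (-0.50) were also lower with the covariate and Chd6 (-0.15) less so, without passing. That fit rests on KO array 2, whose Xist was 0.770 of the WT mean, against 0.0468 and 0.00247 on KO arrays 1 and 3.

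The Chd family had the lowest median of the 4 families, -0.31 over 9 tested genes, with 7 negative values. With each gene's probe sets averaged it was -0.17, the same as that of the Hdac genes. For the brightest probe sets of the same 7 genes all KO arrays were below all WT arrays, a pattern found in 15.5% of all tested genes. Bright further probe sets of Chd4 and Chd7 overlapped between the groups. Chd8, a remodeller that binds beta-catenin and restrains Wnt and p53 targets, gave 2381, 2577 and 2325 on the WT arrays and 1988, 1752 and 1929 on the KO arrays. The gap between the groups exceeded the range within either one, and the log2 fold change was -0.36 (SE 0.09, adjusted p = 0.0701 by limma). Chd4, the motor of the NuRD complex, which keeps skeletal and smooth muscle genes silent in heart muscle, gave 2130, 1958 and 1936 on the WT arrays and 1683, 1591 and 1512 on the KO arrays. Its log2 fold change was -0.33 (SE 0.09, adjusted p = 0.0886 by limma), also without overlap. Both genes would pass at an adjusted p of 0.10 by limma, as the only 2 of 47 tested members, where 805 of the 12712 tested genes pass.

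The stretches before the starts of Chd8 and Chd4, the 2 members with the smallest p, are printed to show what lies upstream of them. They are the 250 bases upstream of the first start that RefSeq's promoter table lists, build GRCm38.p6, with capitals marking GGGCGG and CCAAT on either strand. The table held 36 of the 49 members. Of its 32851 windows of this length, 32.7% hold GGGCGG and 33.8% hold CCAAT. The Chd8 window (chr14:52257761-52258010, minus strand) holds GGGCGG 3 times and CCAAT 1 time, and the Chd4 window (chr6:125095731-125095980, plus strand) holds GGGCGG 2 times and CCAAT 0 times. A match is only a description of the letters.
Chd8: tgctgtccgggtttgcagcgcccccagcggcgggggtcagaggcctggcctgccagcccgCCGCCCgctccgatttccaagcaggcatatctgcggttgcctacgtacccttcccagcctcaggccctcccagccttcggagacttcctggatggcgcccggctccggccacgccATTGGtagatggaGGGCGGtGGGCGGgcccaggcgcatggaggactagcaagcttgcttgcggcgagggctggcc
Chd4: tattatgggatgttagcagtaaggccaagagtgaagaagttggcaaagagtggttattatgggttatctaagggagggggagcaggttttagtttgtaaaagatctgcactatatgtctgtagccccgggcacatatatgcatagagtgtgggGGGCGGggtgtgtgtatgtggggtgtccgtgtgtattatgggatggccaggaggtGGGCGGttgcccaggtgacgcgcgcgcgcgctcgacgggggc

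Chd7, the remodeller mutated in CHARGE syndrome, which includes heart defects, gave 1129, 1059 and 974 on the WT arrays and 949, 741 and 856 on the KO arrays. The log2 fold change was -0.32 (SE 0.12, adjusted p = 0.169 by limma), with KO array 1 close to the lowest WT array. Chd1, a remodeller of transcribed genes that binds methylated histone tails, gave 1054, 954 and 1032 on the WT arrays and 934, 746 and 785 on the KO arrays, for -0.31 (SE 0.11, adjusted p = 0.168 by limma). Chd6 gave 455, 450 and 546 on the WT arrays and 401, 412 and 321 on the KO arrays, for -0.36 (SE 0.14, adjusted p = 0.185 by limma). Neither of these had overlapping groups. Chd2 (-0.27) and Chd1l (-0.12), a remodeller activated by poly(ADP-ribose), completed the genes without overlap, while Chd3 (0.03) and Chd9 (0.09) overlapped. Chd5, known mainly from the nervous system, read 34.0 to 59.9 in WT and 42.3 to 46.7 in KO. It was above the limit on 1 array and was not tested.

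**Figure D3:**
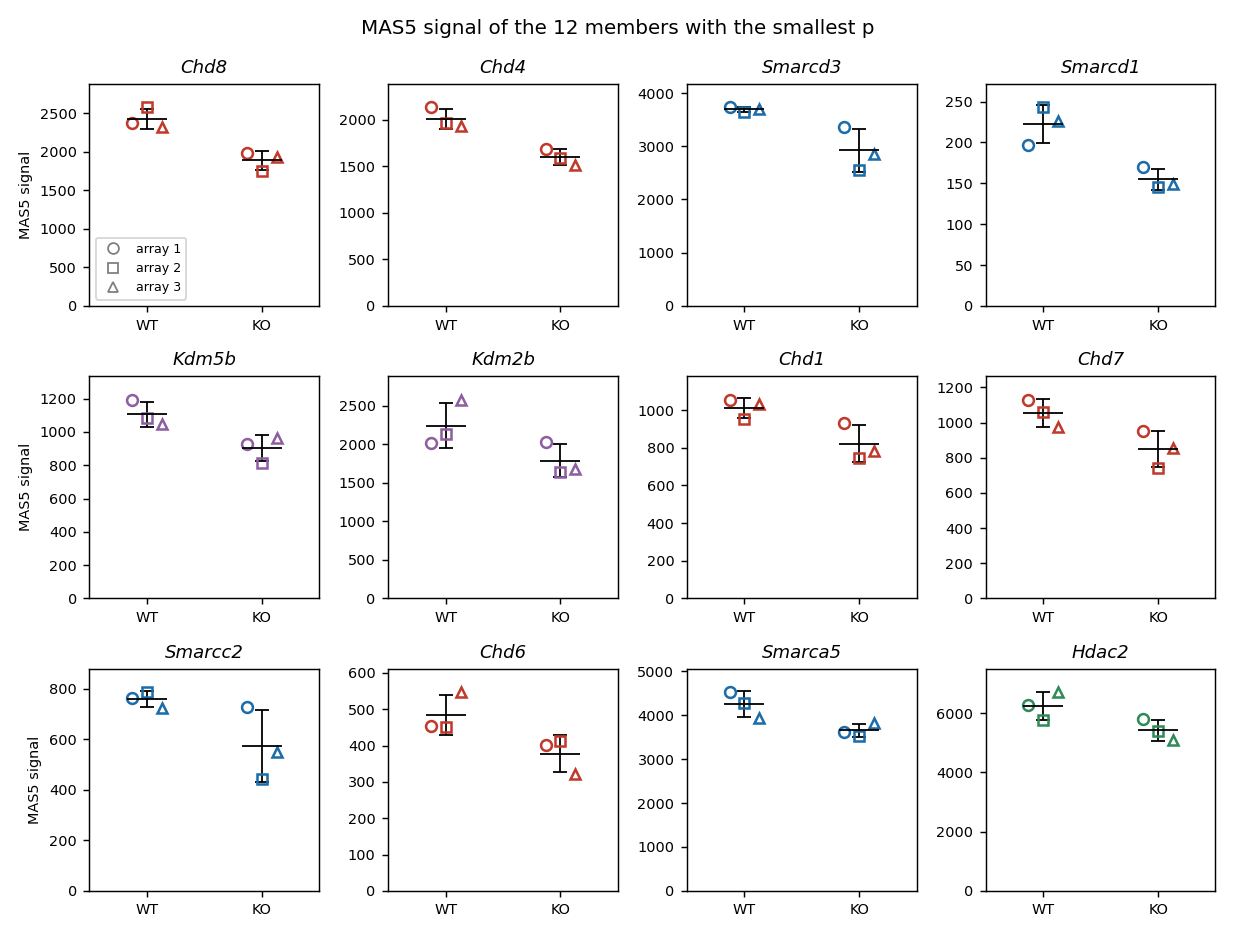
MAS5 signal (y axis, from 0) of the 12 members with the smallest p in WT and KO; symbols are single arrays by number, horizontal lines the group mean and bars the SD of 3 arrays. KO means are lower in each panel, with overlap between the groups for Kdm2b, Smarcc2 and Hdac2; KO array 1 (circle) is the highest KO array in every panel but those of Kdm5b, Chd6 and Smarca5.

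All 11 deacetylase genes had a negative log2 fold change, from -0.25 (Hdac5) to -0.04 (Hdac11), with a median of -0.15, and none passed. The count of 11 is by sign alone, and it was 10 with each array centred on its median, 10 without WT array 2, KO array 2 or KO array 3, and 8 of 10 tested with a gene's probe sets averaged. Among the nuclear class I enzymes, Hdac2, a catalytic subunit of NuRD and other corepressors, gave 6279, 5755 and 6697 on the WT arrays and 5788, 5385 and 5077 on the KO arrays. KO array 1 was just above the lowest WT array, and the log2 fold change was -0.20 (SE 0.09, adjusted p = 0.217 by limma). Its partner Hdac1 gave 3897, 3707 and 4105 on the WT arrays and 3626, 3409 and 3632 on the KO arrays. It was the 1 deacetylase without overlap, with a log2 fold change of -0.13 (SE 0.08, adjusted p = 0.387 by limma). Hdac3, the enzyme of the NCoR corepressor, had -0.12, and Hdac8 had -0.15.

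Class IIa deacetylases bind Mef2 factors and leave the nucleus when phosphorylated. Hdac5 gave 1094, 1269 and 1281 on the WT arrays and 1028, 889 and 1150 on the KO arrays, so that KO array 3 lay within the WT range. Its log2 fold change was -0.25 (SE 0.12, adjusted p = 0.262 by limma). Hdac9, which restrains heart growth together with Hdac5, had -0.20, Hdac4 -0.13 and Hdac7, the endothelial member, -0.10. The tubulin deacetylase Hdac6 had -0.19, Hdac10 -0.19 and the class IV enzyme Hdac11 -0.04. All of these overlapped between groups. Hdac6, Hdac8 and Smarca1 are X-linked, and their values were -0.19, -0.15 and 0.15.

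The demethylases had no common direction: of 14 tested Kdm genes 8 had a positive and 6 a negative value, with a median of 0.03 that was -0.06 with probe sets averaged and -0.10 with the Xist covariate. Kdm5b, which removes an activating methyl mark from promoters, gave 1192, 1081 and 1045 on the WT arrays and 925, 814 and 964 on the KO arrays without overlap. Its log2 fold change was -0.30 (SE 0.11, adjusted p = 0.161 by limma). Kdm2b, which brings a variant Polycomb complex to CpG islands, gave 2013, 2140 and 2577 on the WT arrays and 2031, 1640 and 1685 on the KO arrays. KO array 1 lay above the lowest WT array, and the value was -0.33 (SE 0.12, adjusted p = 0.163 by limma). Kdm1a (Lsd1), the demethylase of the CoREST corepressor, gave 5341, 5771 and 5523 on the WT arrays and 5065, 4587 and 5179 on the KO arrays. It had no overlap and a log2 fold change of -0.17 (SE 0.08, adjusted p = 0.270 by limma). Kdm8 (-0.15), Kdm4c (-0.05) and Kdm4a (-0.04) were the other negative ones.

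On the positive side, Kdm2a had 0.21, Kdm5a 0.20, Kdm3b 0.20, Kdm1b 0.19 and Kdm7a 0.16. Kdm3a, an enzyme for repressive methyl marks that hypoxia induces, had 0.07, Kdm4b 0.06 and Kdm6b, which removes the Polycomb mark, 0.0051. All 8 had overlapping groups. Further tested probe sets of Kdm2a, Kdm3b, Kdm5a, Kdm6b and Kdm7a included negative ones. Bright ones had -0.33 for Kdm6b, -0.32 for Kdm7a, and -0.19 and 0.14 for Kdm5a. Among the negative genes, Kdm2b had a bright further probe set at 0.11. The signs of the Kdm genes thus depend on the probe set. Kdm4d gave 17.4, 45.4 and 33.9 on the WT arrays and 9.84, 12.2 and 1.5 on the KO arrays. It was below the limit on all 6 arrays and was not tested, so these values give no fold change.

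Within a gene, different probe sets often disagreed. The 49 members had 112 probe sets, and 27 of the tested members had 44 further ones that were bright enough to test. Of these 44, 23 had the sign of the gene's brightest probe set (52.3%), close to the 56.8% over 10615 such probe sets of all tested genes. Counted on their own, 33 of the 44 were negative (75%), against 53.3% over all genes. Both kinds of probe set were mostly lower in KO, although the sign within a gene was shared no more often than over all genes. The 2 counts come from the same arrays and are not independent of each other. The 16 members with opposite signs were Chd2, Chd8, Chd9, Hdac11, Kdm2a, Kdm2b, Kdm3b, Kdm5a, Kdm5b, Kdm6b, Kdm7a, Smarca2, Smarca4, Smarca5, Smarcad1 and Smarce1.

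Some of these pairs are bright. The second Smarca4 probe set gave 2255, 1825 and 1857 on the WT arrays and 1811, 2526 and 2102 on the KO arrays, a log2 fold change of 0.11. The second Smarce1 probe set had 0.25 against -0.17 for the brightest, and that of Smarcad1 0.31 against -0.21. The second Chd7 probe set gave 952, 757 and 499 on the WT arrays and 608, 691 and 826 on the KO arrays, a log2 fold change of -0.017 against -0.32. For Chd8, 1 further probe set had -0.33 and a dim one 0.10, and with all of its probe sets averaged its value was -0.17. Averaging also gave -0.17 for Chd7 and -0.11 for Kdm2b, whose second probe sets are bright, that of Kdm2b at 0.11. For Smarcd1 and Chd6 it took in a probe set too dim to test and gave -0.82 and -0.59. It gave -0.49 for Hdac2. The largest difference of the tested probe sets was in a dim further Hdac2 probe set, at -1.04. The bright further one of that gene had -0.21, close to the -0.20 of the brightest. For Chd4, both further probe sets were negative, at -0.10 and -0.32. Smarcc1 stood out the other way: its second bright probe set gave 4290, 4076 and 4495 on the WT arrays and 3504, 3124 and 3071 on the KO arrays, a log2 fold change of -0.41 against -0.12 for the brightest. With every probe set tested separately, this Smarcc1 probe set had an adjusted p of 0.0630 by limma, and the brightest of Chd8 0.0906. Which transcripts these probe sets cover was not analysed here. Among tested members, Smarcd3, Smarcc2, Smarca1, Hdac1, Hdac3, Hdac5, Hdac6 and Hdac8 have a single probe set. So do Chd1l, Chd3, Kdm1b, Kdm3a, Kdm4b, Kdm4c and Kdm8. The brightest probe sets of Hdac2, Hdac3, Kdm1a and Kdm2b are of the type whose probes are shared by several transcripts, so other sequences may add to their signal.

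**Figure D4:**
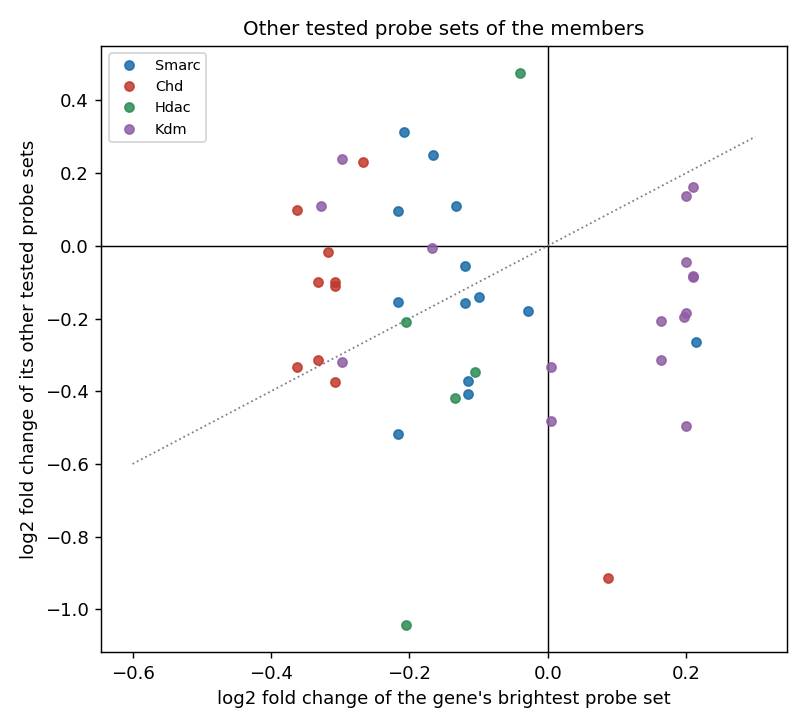
Log2 fold change of the 44 other tested probe sets of members (y axis) against that of the same gene's brightest probe set (x axis), coloured by family; the dotted line marks equal values. Points in the upper left and lower right have opposite signs (21 of 44), and 33 points lie below 0 on the y axis.

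Partners outside the 4 families were read from lists of chromatin genes. Of 14 tested genes of the INO80 and SRCAP complexes and other Snf2-type ATPases, 2 fell, 0 rose and 12 were negative, with a median of -0.37 against -0.04 for all tested genes. Btaf1, the ATPase that removes TATA-binding protein from DNA, gave 3794, 3738 and 3950 on the WT arrays and 2911, 2111 and 2469 on the KO arrays, and fell by 0.63 on the log2 scale (SE 0.11, adjusted p = 0.0360 by limma). Ino80d, a subunit of the INO80 remodeller, gave 1335, 986 and 1116 on the WT arrays and 719, 775 and 766 on the KO arrays, and fell by 0.59 (SE 0.12, adjusted p = 0.0474 by limma). Of 11 histone acetyltransferases 1 rose: Hat1, which acetylates newly made histone H4, gave 2395, 2216 and 2304 on the WT arrays and 2900, 3243 and 3342 on the KO arrays, up by 0.45 (SE 0.09, adjusted p = 0.0421 by limma). Kat6a had -0.45, and the list's median was -0.0058. All 3 calls were lost without WT array 1, 2 or 3 or KO array 3 (adjusted p from 0.120 to 0.203), without the low-signal filter (0.0518 to 0.0610), without the intensity trend of the variances (0.206) and with probe sets averaged, where Btaf1 had -0.34 (0.171). The calls of Ino80d and Hat1 were also lost without KO array 2 (0.0683 and 0.0696), with separate tests of all probe sets (0.0607 and 0.0533) and with the Xist covariate (0.0973 and 0.0803), and that of Hat1 with the replicate number as a block (0.0515).

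In the other chromatin lists no gene passed. SWI/SNF subunits outside the Smarc family had 10 of 19 positive and a median of 0.00083, with Pbrm1, the polybromo subunit, at 0.51 (adjusted p = 0.0542 by limma) and Dpf2 at -0.39. The other NuRD subunits were negative in 9 of 10 cases (median -0.13), with the histone chaperone Rbbp4 at -0.27 and Mta2 at -0.33. ISWI partners had a median of 0.02 over 9 genes, with Baz1b at -0.42 (adjusted p = 0.0502 by limma) and Baz2a at -0.55. Sin3, CoREST and NCoR corepressors had -0.04 over 17 genes, with Arid4a at 0.48 and Ing1 at -0.28. Histone methyltransferases had -0.07 over 25, with Smyd2 at 0.35 and Suv39h2 at -0.43. Polycomb genes had 0.03 over 24, with Suz12 at -0.26 and Cbx6 at 0.32. Other JmjC proteins had -0.09 over 12, with Phf2 at -0.43 and Tyw5 at -0.32. Sirtuins had -0.07 over 7, with Sirt5 at 0.33 and Sirt2 at -0.23.

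Genes known to depend on Smarca4 in the embryonic heart were read beside it. Myh6, the adult myosin heavy chain that Smarca4 represses in the embryo, had -0.25, and Bmp10, a trabecular growth factor that needs it, had 0.50, with mean signals of 186 ± 16.8 (WT) and 265 ± 46.1 (KO) (SD over 3 arrays each; adjusted p = 0.145 by limma). Myh7 (-0.09), Cdkn1c (-0.04) and Adamts1 (0.03) were near 0, and none of the 5 passed. A further list held Mef2 factors and other cardiac transcription regulators, chosen around the class IIa deacetylases, though not all of them are partners of these enzymes. Of its 7 tested genes none passed, with Mef2c at -0.39 and Hopx, which is not counted as such a partner here, at 0.16.

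**Figure D5:**
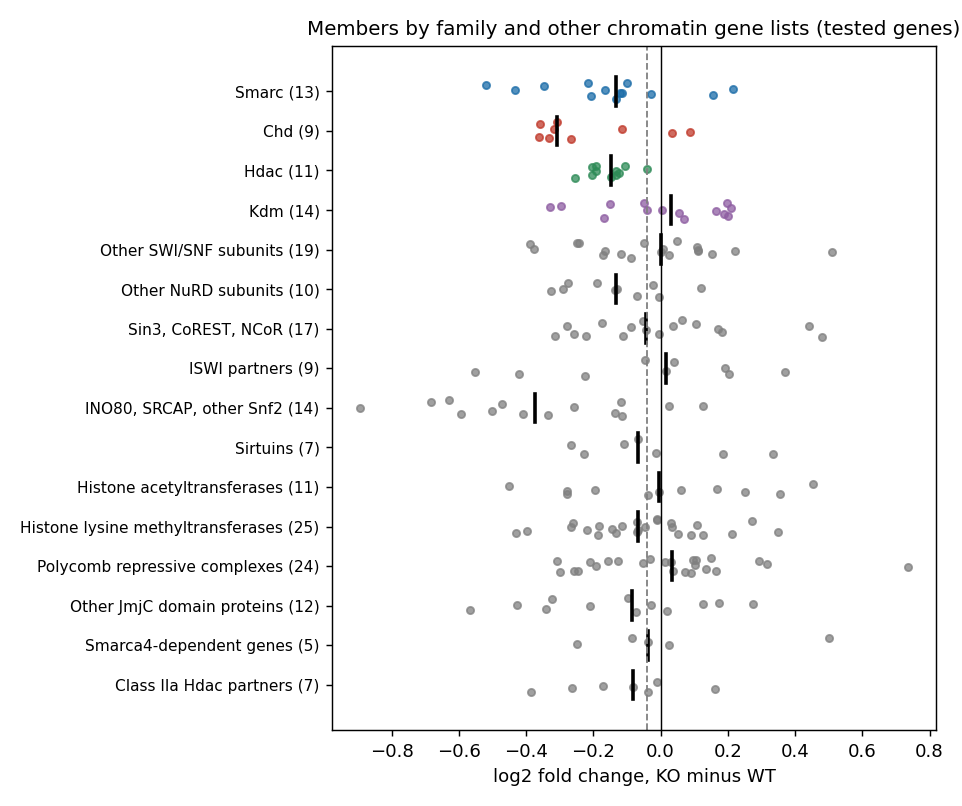
Log2 fold change (x axis, KO minus WT) of tested genes of the 4 member families (coloured) and of other chromatin gene lists (grey); points are genes, black bars are medians, the dashed line is the median of all tested genes, and the number of genes stands in brackets. Chd genes (-0.31) and the INO80, SRCAP and other Snf2 list (-0.37) have the lowest medians with the brightest probe set per gene; with probe sets averaged the Chd median was -0.17.

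Markers of other cell types also differed between the arrays. The 13 markers of liver and yolk sac endoderm on the array summed to 1847 to 8071 in WT and 549 to 2265 in KO, with overlap. All 9 that could be tested were negative. Afp alone gave 1116, 2496 and 6054 on the WT arrays and 216, 1074 and 2.78 on the KO arrays. The 9 markers of foregut epithelium summed to 5301 to 5913 in WT and 2903 to 4937 in KO, lowest on KO array 2, with Nkx2-1 below the limit on all arrays. The 5 markers of the second heart field summed to 3028 to 3113 in WT and 2455 to 3017 in KO. The 8 macrophage markers summed to 970 to 1049 in WT and 1013 to 2331 in KO, with overlap and highest on KO array 2. Sums over 8 neuron markers (1129 to 1329 in WT, 1064 to 1243 in KO) and 7 proliferation markers (43731 to 46242 in WT, 41171 to 46467 in KO) also overlapped. So did those of 8 endothelial markers (8047 to 8970 in WT, 8381 to 9843 in KO), 6 epicardial ones (9177 to 9527 in WT, 6436 to 10518 in KO) and 7 of cushion mesenchyme (26969 to 30073 in WT, 24868 to 29104 in KO). The 8 erythroid markers (92694 to 110559 in WT, 95727 to 110208 in KO) and 4 of neural crest (816 to 984 in WT, 812 to 1047 in KO) overlapped as well, with Hba-a1 and Foxd3 below the limit on all arrays. Besides the Y-linked genes, the single markers that passed were Habp2, Alb, Lyz2 and Top2a. Habp2 and Alb of the liver list fell (-2.996, adjusted p = 0.0389 by limma, and -1.97, just under 0.05). Habp2 was above the limit on 3 WT and 0 KO arrays, Alb on 3 WT and 1 KO array. Both met the filter through their WT arrays, so these fold changes are unreliable. The macrophage lysozyme Lyz2 rose by 1.38 (adjusted p = 0.0374 by limma). Of the 8 tested macrophage markers 6 were positive and 2 negative, with a median of 0.11. The proliferation gene Top2a fell by 0.33 (just under 0.05), but Pcna had 0.20 with every KO array above every WT array. Of the 7 proliferation markers 4 were negative and 3 positive. The 10 heart muscle markers had a median log2 fold change of -0.14, beside -0.13 for the members. Of these 10, 8 were negative and none passed. Nkx2-5 (-0.29), Ryr2 (-0.26), Myh6 (-0.25) and Myl2 (-0.14) were lower on every KO array than on every WT array. The part of these cells, or of sex, in the members' values was not tested.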

How the data were processed

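Each of the 3 WT and 3 KO samples has 1 array. The authors deposited one linear signal intensity for every probe set; the submitters' processing notes name MAS5 and Affymetrix Expression Console, without versions or settings. The mean of every array, after 2% was trimmed from each end, was 500.0, so no scaling was added. Of 45037 probe sets besides controls, 34945 named 1 gene, 932 several, and 9160 were unnamed here. All 49 members matched a RefSeq gene. The contrast KO minus WT was fitted to log2 signals by limma 3.58.1 (R 4.3.3; intensity trend in eBayes) for 12712 genes, with p-values adjusted by Benjamini-Hochberg and called below 0.05; only such genes are said to have risen or fallen. The script was tested on simulated data. Members, lists and tests were chosen with earlier results of these data known. By rule, array signals are given for the 12 members with the smallest p, and each chromatin gene list is represented by its called genes or else its 2 smallest p; cell type marker lists are given by summed signal and called genes. Other genes with array signals or statistics, and both promoters, were chosen after their values were seen. Of 5 planned promoter features only GGGCGG and CCAAT were searched. The number of arrays limits the precision.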

Additional observations from a re-analysis of the deposited data

How the results depend on the processing

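The count of 0 members past the test also held under quantile normalization, median centring, a floor at the low-signal limit, no filter or a stricter one, averaged or separate probe sets, no intensity trend, robust variances and the replicate block. It was 1 with array weights (Chd8), 2 with the Xist covariate, 2 at an adjusted p of 0.10, and 0 to 3 when each array was left out. The members' median of -0.13 was -0.084 with median centring (all tested genes, 0.0099), -0.20 with the Xist covariate (all, -0.02), and -0.16 to -0.11 when each array was left out; it was negative under each of these settings. The 12 members with the smallest p, picked from these same data, kept their sign in each of 19 alternatives. Settings of the floor, filter, trend, robust variance, block and threshold, and separate probe sets, left their fold changes as they were. The sign could not change there. Btaf1 lost its call in 7 of the 19, Ino80d in 10 and Hat1 in 11. The count over all genes, 162, was 312 with median centring (253 higher, 59 lower, against 100 and 62), 1 without the filter, 291 with the stricter one, 0 with probe sets averaged, 1 without the trend, 542 with array weights, 819 with the Xist covariate, 805 at an adjusted p of 0.10, and 0 to 916 when each array was left out. With the replicate number as a replicate block it was 189; same-numbered samples deviated together at r = 0.018, 0.057 and 0.015 over genes, and not every sample correlated best with its own number, so the numbers were not taken to pair them. Hat1 missed the threshold in that paired fit (adjusted p = 0.0515). Dim members such as Chd5 and Kdm4d are limited by signal over background.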
